A study of Mus musculus with 8 samples.

Results

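Tma7 and 3 intronless copies of ribosome-related genes (Tma7-ps, Gm15610 and Gm8210) were followed in RNAseq of S0 cells, the least mature erythroid precursors of the mouse fetal liver. These 4 genes were taken by symbol from the 52636 genes of the count table. The 3 copies were picked because they were nearly absent in WT and high in DKO, so their difference between the genotypes is given as a description and was not tested. Tma7 was taken as the parent gene. The 4 WT and 4 DKO libraries were made from polyA RNA of cells sorted as CD71- and Ter119- from fetal livers at E12.5. The DKO embryos lacked Vps13a and Vps13c, genes of lipid transfer proteins, and the colony was kept on C57BL/6J. The Vps13a allele was tm1d, made from tm1a mice of a European archive by breeding with FLP and β-actin-Cre transgenic mice. The Vps13c knockout mice were also generated with sperm from that archive. DKO embryos came from parents that were already Vps13c-/-, so that WT embryos had other parents, and genotype and mating cannot be told apart. Whether each library was 1 embryo is not given in the sources used here, and p-values measure the spread between these libraries.

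A retrocopy, or processed pseudogene, arises when the enzymes of a LINE-1 element copy a spliced mRNA back into DNA and insert it elsewhere, so that it lacks the introns and usually the promoter of its parent. Tma7 (translation machinery-associated 7) encodes a small protein whose yeast counterpart was found with ribosomes. Rpl29 encodes a protein of the large ribosomal subunit, and ribosomal protein genes have left many retrocopies in mammalian genomes. Within the copied sequence, a read from a young retrocopy can be told from one of its parent only at the few bases that differ. A read from a parental allele that carries a base of the copy could align to the copy. The authors excluded alignments with a mapping quality under 20, which removes most reads that fit several places equally well. The deposited table holds counts and no read sequences, so whether a count at a retrocopy came from transcription of that copy or from an allele of its parent was not tested.

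The 3 copies had 2 parents. By alignment of the GENCODE transcripts, Tma7-ps (ENSMUSG00000059058.7, GRCm38 chr1:171711088-171711282, plus strand) and Gm15610 (ENSMUSG00000078183.3, chr5:8971948-8972142, plus strand) were copies of the coding sequence of Tma7, whereas Gm8210 (ENSMUSG00000094497.1, chr1:43189156-43189638, plus strand) was a copy of the coding sequence of Rpl29. Each was annotated as 1 exon from start codon to stop codon. The sequences of Tma7 and its copies are shown because all that sets them apart is in the capital letters, the bases at which a copy differs from the parent.
Tma7: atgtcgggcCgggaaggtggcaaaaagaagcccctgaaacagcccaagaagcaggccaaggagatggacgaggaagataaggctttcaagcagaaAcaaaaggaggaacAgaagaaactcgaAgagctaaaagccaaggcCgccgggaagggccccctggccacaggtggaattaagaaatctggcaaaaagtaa
Tma7-ps: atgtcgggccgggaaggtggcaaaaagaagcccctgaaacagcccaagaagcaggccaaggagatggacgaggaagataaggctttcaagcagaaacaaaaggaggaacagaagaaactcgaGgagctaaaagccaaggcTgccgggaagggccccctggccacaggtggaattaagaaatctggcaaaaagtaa
Gm15610: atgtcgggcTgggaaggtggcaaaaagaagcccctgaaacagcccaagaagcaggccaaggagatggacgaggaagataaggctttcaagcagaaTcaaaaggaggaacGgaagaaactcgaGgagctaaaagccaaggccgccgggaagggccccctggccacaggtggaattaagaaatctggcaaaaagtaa
Positions were counted from 1 at the A of the start codon, with the base of the parent first. Tma7-ps differed from Tma7 by A123G and C141T over 195 bases (99.0% identity), and neither changed the meaning of a codon. Gm15610 differed by C10T, A96T, A110G and A123G (97.9% identity), which changed the meaning of 3 of 64 sense codons. A123G was thus common to both copies, and all 8 annotated Tma7 copies in the count table carried it. The longest stretch without a difference from Tma7 was 122 bases in Tma7-ps and 85 bases in Gm15610.

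The first 300 bases of Gm8210 (chr1:43189156-43189455) are shown because a base in them recurs in 2 other Rpl29 copies that were higher in DKO. Capitals mark the bases that differ from Rpl29.
Gm8210: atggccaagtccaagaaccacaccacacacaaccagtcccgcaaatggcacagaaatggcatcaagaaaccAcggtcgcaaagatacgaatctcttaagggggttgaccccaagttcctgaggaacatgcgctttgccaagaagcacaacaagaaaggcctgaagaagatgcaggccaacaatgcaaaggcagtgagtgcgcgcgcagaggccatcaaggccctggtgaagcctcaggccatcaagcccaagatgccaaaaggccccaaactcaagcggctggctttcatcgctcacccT
Gm8210 differed from the Rpl29 coding sequence by C72A, C300T and T423C over 483 bases (99.4% identity), with no codon changed in meaning and no early stop codon. It was identical over its 483 bases to Gm13841 (chr5:115801677-115802159, minus strand). A read pair that lies wholly within these bases fits Gm8210 and Gm13841 equally well. The mapping quality filter removes most reads of this kind. Whether the counts at Gm8210 and Gm13841 came from reads that reach beyond these bases was not tested. The parent Rpl29 lies on chr9:106429454-106431568 (plus strand) and Tma7 on chr9:109074568-109082587 (minus strand), so that both parents were on chromosome 9, 2.64 Mb apart. Vps13c, one of the targeted genes, is on the same chromosome, 41.1 Mb from Tma7 and 38.4 Mb from Rpl29.

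Tma7 itself was abundant in every library and moved little. Levels are given in normalized counts, which are the deposited counts scaled to a common effective library size. Tma7 (ENSMUSG00000091537.2) had 13998, 13961, 14684 and 13867 in WT replicates 1 to 4 and 15389, 14700, 16861 and 15202 in DKO replicates 1 to 4. The lowest DKO library was just above the highest WT library. WT averaged 14128 ± 375 and DKO averaged 15538 ± 929 (SD of 4 libraries), which is a log2FC (log2 fold change, here with its standard error) of 0.14 ± 0.07, with a 95% interval of -0.02 to 0.29 and an edgeR adjusted p of 0.188. The exact two-sided permutation test gave p = 0.0286, the smallest that 70 arrangements allow, and 0.0286 after adjustment over the 2 parents. Of all 17378 genes tested, 13.5% had every DKO library above every WT library. With upper-quartile scaling, which moved the median of all genes from 0.03 to 0.14, the log2 fold change of Tma7 was 0.24 (edgeR adjusted p = 0.0339).

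Tma7-ps was low in every WT library and high in every DKO library. It had 17.8, 23.2, 30.4 and 15.7 normalized counts across WT, against 799, 2003, 2021 and 2007 in DKO. In DKO, replicates 2 to 4 were within a narrow band and replicate 1 was at 39.7% of their mean. The ratio of the summed counts (6059 in DKO, 97 in WT, scaled for library size) was 76.8, with an exact 95% counting interval of 62.8 to 94.9. That interval covers counting error only, as do the others of this kind. Per kilobase of annotated exon, the level was 112 ± 33.6 in WT and 8755 ± 3107 in DKO (SD, n = 4), beside 11433 ± 683 for Tma7 in DKO. The annotated length was 195 bases for Tma7-ps, the coding sequence alone, and 1359 bases for Tma7.

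Gm15610 had 4.19, 3.44, 1.74 and 2.62 normalized counts in WT, from 2 to 4 raw counts per library. In DKO it had 286, 582, 671 and 563, and replicate 1 was again the lowest, at 47.2% of the mean of the others. The summed counts were 13 in WT and 1862 in DKO, a ratio of 176 (exact 95% counting interval 103 to 331). Per kilobase, Gm15610 reached 2696 ± 855 in DKO.

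Another Tma7 copy followed the same course. Gm6916 (chr7:128314784-128340805, plus strand), annotated as a transcribed processed pseudogene, has 4 mismatches with the Tma7 coding sequence and was found by sequence, not by its level. It had 2.09, 1.72, 0.87 and 3.5 normalized counts across WT, against 128, 272, 316 and 301 in DKO, with replicate 1 at 43.3% of the mean of the other DKO libraries. The ratio of its summed counts (903 in DKO, 9 in WT) was 123, with an exact 95% counting interval of 64.7 to 271. With 1 to 4 raw counts per WT library it entered the fit only through DKO, so no test is given for it. Genes are named as called higher below where the log2FC was over 1 with an adjusted p under 0.05, which held for 6.19% of the 17378 genes tested. At an unadjusted edgeR p under 0.05, 3205 of the 17378 were higher and 3100 lower. DESeq2 called 1395 of them higher and 557 lower. The other 5 annotated Tma7 copies had at most 7 raw counts in a library and were not tested. The highest of them, Gm14200 with 5 mismatches over 192 bases, had 0, 0, 0 and 1.75 normalized counts across WT, against 1.05, 5.81, 8.55 and 7.31 in DKO.

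The 3 Tma7 copies, on chromosomes 1, 5 and 7, stood in nearly the same proportion in each DKO library. Of their summed counts, Tma7-ps held 65.9% to 70.1%, Gm15610 19.6% to 23.6% and Gm6916 9.52% to 10.6%. Their sum, however, was 1213 normalized counts in DKO replicate 1 and between 2857 and 3008 in the other DKO libraries. These shares are a description over 4 libraries, since 2 of the 3 genes were chosen on their levels.

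**Figure D1:**
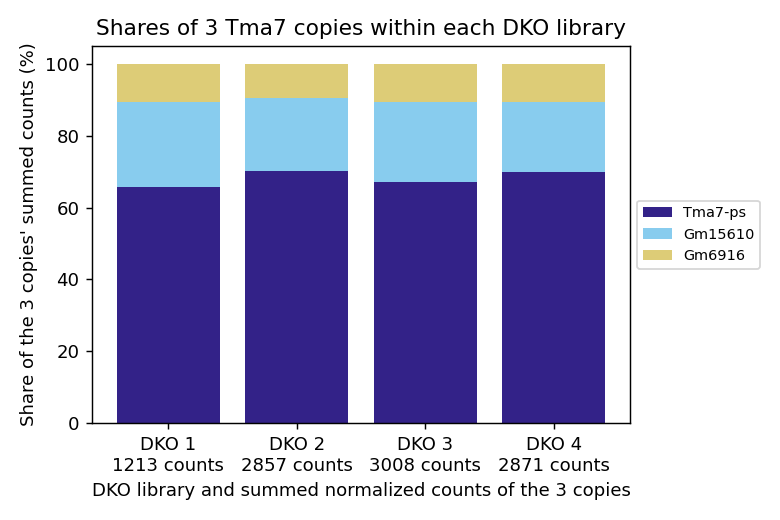
Stacked bars give the share (percent) of Tma7-ps, Gm15610 and Gm6916 in their summed normalized counts, 1 bar per DKO library, with the sum under each bar. The shares are close in all 4 libraries although the sum in replicate 1, 1213, is the lowest.

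Together, Tma7 and its 8 pseudogene copies summed to 14155 ± 379 in the WT libraries and to 18033 ± 1375 in the DKO libraries (SD, n = 4). The copies held 0.17% to 0.22% of this sum in WT. In DKO they held 7.32% in replicate 1 and 16.3%, 15.2% and 15.9% in replicates 2, 3 and 4. The counts of Tma7 itself were higher in every DKO library than in every WT library. Within DKO they were 15389 in replicate 1, where the copies were lowest, and 14700, 16861 and 15202 in replicates 2, 3 and 4.

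**Figure D2:**
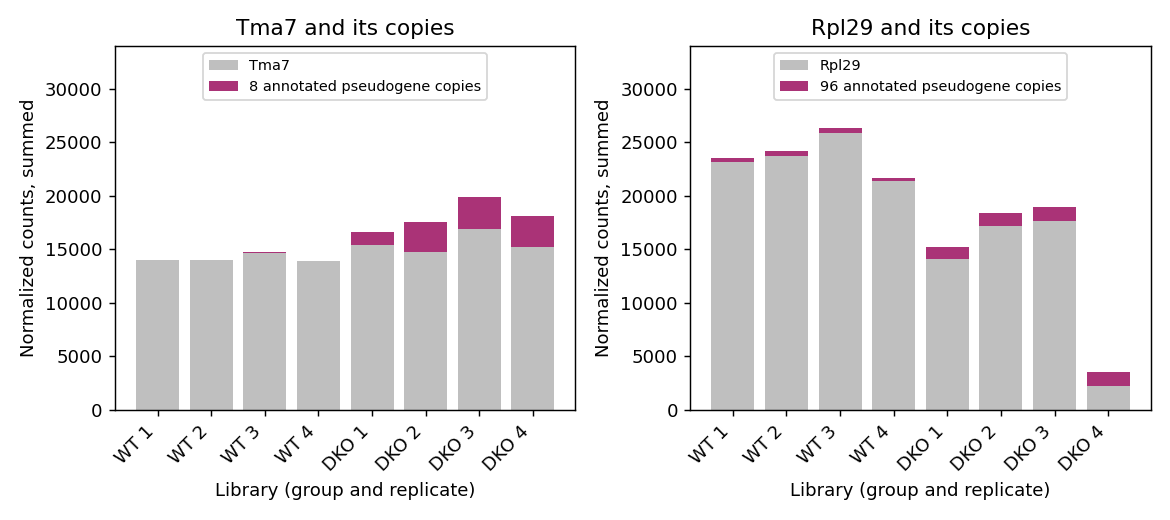
Bars give normalized counts per library for Tma7 (left) and Rpl29 (right) in gray, with the sum of their annotated pseudogene copies stacked on top. The copies of Tma7 add up to between 7.32% and 16.3% of the sum in the DKO libraries, and Rpl29 in DKO replicate 4 is far below all other libraries.

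Gm8210 showed the widest gap of the 3 copies, with another order of the DKO libraries. It had 2.09, 0.86, 3.47 and 2.62 normalized counts in WT, from 1 to 4 raw counts per library, and 379, 554, 596 and 842 in DKO. Replicate 1 was again the lowest, and replicate 4 was the highest. From summed counts of 10 in WT and 2132 in DKO, the ratio was 262 (exact 95% counting interval 142 to 547). The level per kilobase in DKO was 1228 ± 395, beside 11355 ± 6428 for Rpl29. It was taken over the annotated sequence of Gm8210, within which a read cannot be told from one of the identical Gm13841.

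The parent of Gm8210 was lower in every DKO library. Rpl29 had 23201, 23677, 25868 and 21375 normalized counts across WT, against 14069, 17215, 17663 and 2196 in DKO. The DKO libraries did not overlap with WT, as was so in this direction for 14.6% of the genes tested. DKO replicates 1 to 3 were at 59.8% to 75.1% of the WT mean and replicate 4 at 9.33%, the library in which Gm8210 was highest. Its log2FC was -0.88 ± 0.48 by edgeR (95% interval -1.97 to 0.21, adjusted p = 0.224), and the exact permutation test gave p = 0.0286, also after adjustment over the 2 parents. Without DKO replicate 4 the log2 fold change was -0.53 and the edgeR adjusted p was 0.0195.

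**Figure D3:**
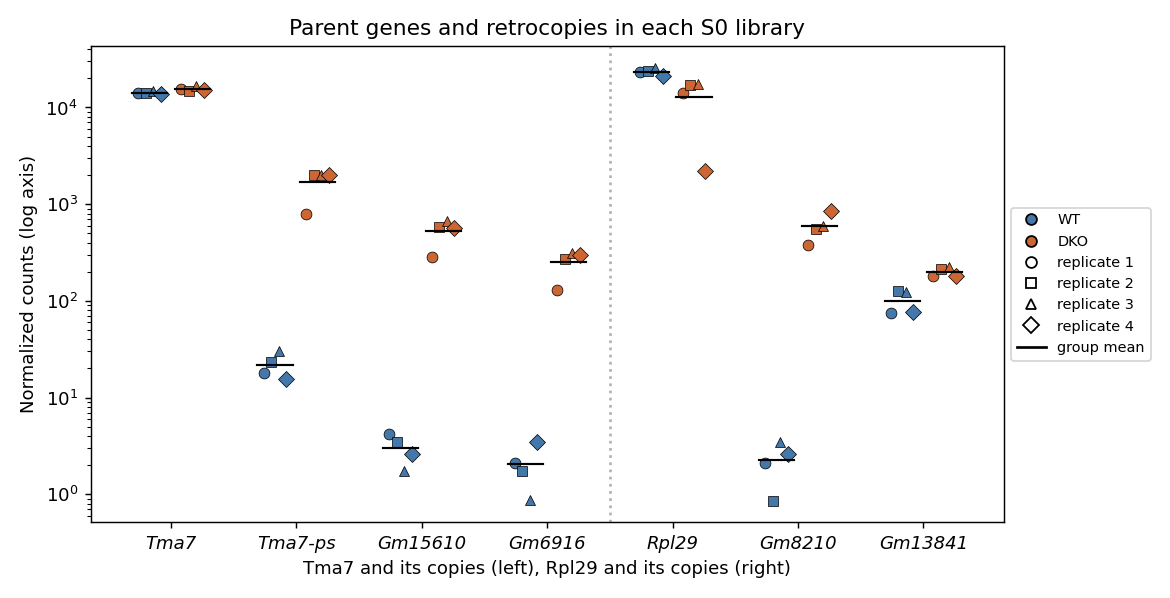
Points give normalized counts (log axis) of each parent and copy in the WT (blue) and DKO (orange) libraries, with a marker shape per replicate number and a bar at the group mean. DKO replicate 1 is lowest for all 3 Tma7 copies, and replicate 4 is lowest for Rpl29 and highest for Gm8210.

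Rpl29 has far more copies than Tma7. Apart from Gm8210, 98 annotated genes aligned to at least 50% of its coding sequence at 80% identity or more, 35 of them had no count in any library, and 12 were tested. Among the 12 was Uimc1, a protein-coding gene that aligned on the opposite strand only and so is not a copy in the sense direction. Of these 12, 1 was called higher by edgeR (6.19% of all genes were), with 3 higher at an unadjusted p under 0.05 and 1 called by DESeq2. By edgeR, 0 were called lower (0 at an unadjusted p under 0.05 and 0 by DESeq2). Their median log2 fold change was 0.10 against 0.03 for all genes. The gene called was 4931440P22Rik (chr3:65507257-65529379, minus strand), with 29.3, 31.8, 43.4 and 49.0 normalized counts across WT, against 212, 131, 168 and 124 in DKO (log2FC 2.05 ± 0.34, edgeR adjusted p = 0.00518). Gm13841, the exact twin of Gm8210, had 74.4, 127, 122 and 76.1 in WT and 180, 214, 225 and 181 in DKO (log2FC 0.998 ± 0.287, edgeR adjusted p = 0.0357), just under the fold threshold. Both groups of libraries were apart for each of these 2 genes, but neither was near 0 in WT as Gm8210 was.

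The 2 other Rpl29 copies with an edgeR adjusted p under 0.05 shared C72A, among other bases, with Gm8210. After the values were seen, the 12 tested genes were split by the bases at which Gm8210 differs from Rpl29. Uimc1, which aligned on the opposite strand, was not compared at these bases and was left among those without C72A. C72A was carried by Gm13841 and 4931440P22Rik, and both had an adjusted p under 0.05. Gm13841, as the twin of Gm8210, carries all 3 bases by identity, and 4931440P22Rik also carries T423C. The split is thus a description and cannot link C72A to the change. Of the 10 tested copies without C72A, 6 carried C300T or T423C, and 0 of the 10 passed by edgeR (lowest adjusted p 0.135), with log2 fold changes from -1.17 to 1.19. In the whole table, C72A was carried by 4 Rpl29 copies, C300T by 32 and T423C by 54. The fourth carrier of C72A, Gm12447, had at most 6.27 normalized counts and was not tested. Summed over Rpl29 and its 96 pseudogene copies, the level was 23910 ± 1904 in WT and 14034 ± 7174 in DKO (SD, n = 4), of which the copies held 1.35% to 1.96% in WT, 6.48% to 7.37% in DKO replicates 1 to 3 and 38.4% in DKO replicate 4.

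Apart from Gm6916, no other retrocopy at this level had a gap of this size. Tma7-ps, Gm15610 and Gm8210 were chosen for such a gap, so their own lead here was set in advance. With at least 100 normalized counts in every DKO library required, 165 processed pseudogenes besides Tma7-ps, Gm15610, Gm8210 and Gm6916 remained. The lowest DKO library was 109 times the highest WT library for Gm8210, 68.2 times for Gm15610, 36.7 times for Gm6916 and 26.3 times for Tma7-ps. The next processed pseudogene was 4931440P22Rik at 2.54 times, and the median of the 165 was 0.963. Of the 165, 68 (41.2%) had every DKO library above every WT library, against 13.5% of all genes tested. The 165 had to pass a floor in DKO, which all genes did not. Of 744 other processed pseudogenes tested, 9 were called higher (1.21%) and 3 lower (0.403%), and their median log2 fold change was 0.28, against 0.03 for all genes. This median was 0.39 with upper-quartile scaling. Of the 744, 519 had a log2 fold change above 0, against 9147 of all 17378 genes. With no fold threshold 30 passed as higher and 3 as lower, against 1867 and 1878 of all genes.

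**Figure D4:**
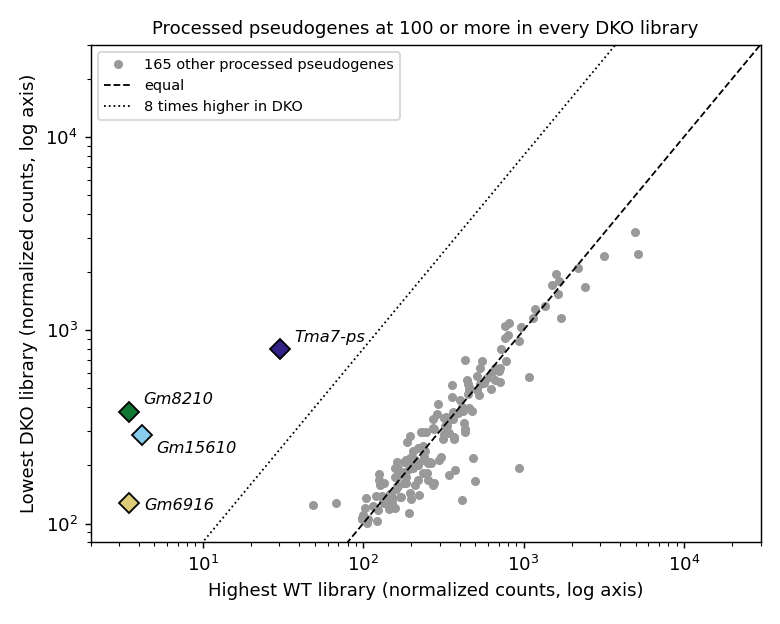
Each point is a processed pseudogene with at least 100 normalized counts in every DKO library, placed by its highest WT library (x, log axis) and lowest DKO library (y, log axis), with lines for equal values and for 8 times more in DKO. Tma7-ps, Gm15610, Gm8210 and Gm6916 are above the 8 times line. The other 165 lie below it, around the line of equality, with 68 of them above that line. Tma7-ps, Gm15610 and Gm8210 were chosen for this gap.

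Over all genes, 20 were switched on in DKO, with the lowest DKO library at 100 normalized counts or more and at least 8 times the highest WT library, which was 0.178% of the 11255 genes at that level. The 4 copies above made up 4 of the 20, of which Tma7-ps, Gm15610 and Gm8210 met the rule by their choice, and 14 were protein-coding. The most abundant was Tmem163 (transmembrane protein 163, linked to zinc transport) on chromosome 1, with at most 68.0 normalized counts in a WT library and 12079 or more in every DKO library. Ifi27, Isg15, Ifit1 and Rsad2, all known interferon-stimulated genes, were also on the list, as were Trib3, a target of the integrated stress response, the chemokine Ccl5, the histone gene Hist2h4 and the unprocessed pseudogene Gm28438. By the reverse rule 2 genes were switched off. Gm42047, a lincRNA, had a mean of 4157 in WT and 6.01 in DKO, and Kcnk16, a potassium channel gene, had 193 in WT and was at 0 in every DKO library.

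The copies lie within or near genes with counts of their own. Gm15610 lies on the opposite strand within Crot, which encodes a peroxisomal carnitine acyltransferase and had 4187 ± 460 normalized counts across WT, against 2897 ± 277 in DKO (log2FC -0.53 ± 0.10, edgeR adjusted p = 0.00918). Gm8210 lies on the opposite strand within Fhl2, a gene of a LIM-domain protein, with 148 ± 22.5 and 171 ± 77.9 (log2FC 0.21 ± 0.34, edgeR adjusted p = 0.705). The sources used here do not say whether counting used strand, so reads of a copy and of its host gene could be told apart by position only. Tma7-ps lies in no other gene, 5830 bases beyond the end of Cd48. Cd48, a leukocyte surface ligand, fell from 3312 ± 187 to 759 ± 492 (log2FC -2.13 ± 0.42, edgeR adjusted p = 0.00902) while Tma7-ps went the other way. On the other side, the nearest called gene was Slamf6, a receptor of the same family, 206233 bases away, which fell from 21.9 ± 8.02 to 0.53 ± 1.05 (edgeR adjusted p = 0.00976).

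Within 1 Mb of Tma7-ps, 59 genes were tested, of which 2 were called higher and 7 lower, against 6.19% and 2.43% of all genes. Around Gm15610, the median log2FC of the 15 genes tested was 0.50 against 0.03 for all genes. Of the 15, 12 were above 0, as were 9147 of all 17378. With no fold threshold 4 of the 15 passed as higher and 1 as lower, against 1867 and 1878 of all 17378 genes. Abcb4, a phospholipid transporter gene 12717 bases away, was among the higher (log2FC 0.50, edgeR adjusted p = 0.0395). With the fold threshold 1 was called higher and 0 lower by edgeR (5 higher and 2 lower at an unadjusted p under 0.05, 2 higher and 0 lower by DESeq2). The gene called was Steap4, a metalloreductase, 989735 bases away. Around Gm8210, 0 of 16 were called by edgeR in either direction (5 lower and 0 higher at an unadjusted p under 0.05, 1 lower by DESeq2). Around Tma7, 2 of 49 were called higher and 0 lower by edgeR (9 lower at an unadjusted p under 0.05, 0 by DESeq2). The nearest was Trex1, a DNA exonuclease that restrains cytosolic DNA sensing, which rose from 166 ± 58.7 to 463 ± 70.6 (log2FC 1.48 ± 0.27, edgeR adjusted p = 0.00685). Trex1 lies within the interval of Atrip, whose end is 444 bases from Tma7. Atrip had 384 ± 385 in WT (119 to 948) and 1040 ± 265 in DKO (log2FC 1.44 ± 0.58, edgeR adjusted p = 0.107). Whether the 2 genes share counts was not tested. Tma7 overlaps the start of Ccdc51, a gene of the opposite strand, with 681 ± 85.7 and 795 ± 106 (edgeR adjusted p = 0.326).

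The start of Tma7-ps is shown with the stretch that it shares without a difference with the parent. RefSeq (GRCm38.p6) gives Tma7-ps a gene start, and the window below (chr1:171710820-171711119, plus strand) runs from 250 bases before it to 50 after. Capitals mark the end of the window that occurs without a difference in the Tma7 transcript.
Tma7-ps start region: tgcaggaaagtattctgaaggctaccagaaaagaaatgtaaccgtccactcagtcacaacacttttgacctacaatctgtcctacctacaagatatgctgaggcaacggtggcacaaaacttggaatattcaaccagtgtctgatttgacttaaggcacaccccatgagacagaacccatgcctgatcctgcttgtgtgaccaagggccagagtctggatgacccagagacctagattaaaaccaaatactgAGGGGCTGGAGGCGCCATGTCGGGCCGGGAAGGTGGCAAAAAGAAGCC
The shared stretch was 48 of 300 bases, of which 16 precede the start codon. It ends at the first difference from the longest Tma7 transcript. The bases before it were not aligned, so a longer likeness with differences was not tested. Because interferon-stimulated genes were switched on in the same libraries, the interferon-stimulated response element (GAAA, any 2 bases, GAAA) and the gamma-activated sequence TTCNNNGAA were searched on both strands. Neither was in the windows of Tma7-ps or Tma7, and 3.44% and 8.30% of 32851 windows of this length held them. No window was at hand for Gm15610 or Gm8210.

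The genes whose log2 CPM followed each member most closely over the 8 libraries were listed by Pearson's r, which for the copies mostly reflects the gap between WT and DKO. For Gm15610 the closest gene was Gm6916 (r = 0.997), followed by Chmp4b (0.995), of the ESCRT membrane machinery, and Ifi27 (0.995). For Tma7-ps they were 4933440N22Rik (0.996), Fam166a (0.994) and Emc9 (0.994), a subunit of a membrane insertion complex of the endoplasmic reticulum. For Gm8210 they were Gm13339 (0.995), Fam166a (0.994) and Chmp4b (0.993). In all, 247 genes had r of 0.95 or more with Tma7-ps, 191 with Gm15610 and 231 with Gm8210. For Tma7 there were 13, led by the pseudogene Gm6807 (0.986), Ap2s1 (0.968), of the clathrin adaptor AP-2, and Timm10b (0.963), of mitochondrial protein import.

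Other genes of translation, like Tma7, moved little. Of 32 listed genes of ribosome association, nascent chains, recycling and rescue, 30 were tested and 0 were called by edgeR (5 higher and 3 lower at an unadjusted p under 0.05, 0 by DESeq2), against 8.63% of all genes called in either direction. Their median log2 fold change was 0.04 against 0.03. With no fold threshold 4 passed, as did 21.6% of all genes. Tpt1, which encodes the abundant tumor protein TCTP, rose by 0.45 on the log2 scale (edgeR adjusted p = 0.0110), and Rack1, of the small ribosomal subunit, rose by 0.42 (edgeR adjusted p = 0.0140). Ltn1, the ligase that marks stalled nascent chains, fell by 0.42 (edgeR adjusted p = 0.0392), and Abce1, which splits ribosomes, fell by 0.53 (edgeR adjusted p = 0.0157).

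The libraries differed by genotype in other respects that accompany these values. Xist, the RNA of the inactive X chromosome, was at 18029 normalized counts or more in DKO replicates 1, 2 and 4 and at most 62.3 in the other libraries, and Y-linked Ddx3y was at 2516 or more in WT and DKO replicate 3 and at most 41.0 elsewhere. In DKO replicate 3, the only DKO library that matched WT in this, Tma7-ps was 92.7 times, Gm15610 224 times and Gm8210 263 times the WT mean. Nnt, a mitochondrial transhydrogenase gene with a known deletion in C57BL/6J, had 320 to 956 normalized counts across WT, against 1763 to 2640 in DKO (log2FC 1.74 ± 0.29, edgeR adjusted p = 0.00525). Vps13a was lower in DKO (log2 fold change -1.29, edgeR adjusted p = 0.00247) and Vps13c was not (0.49, edgeR adjusted p = 0.182), so the count over the whole Vps13c gene does not check the labels. Erythroid markers were present, with 0 of 8 called by edgeR (2 higher and 0 lower at an unadjusted p under 0.05, 0 by DESeq2). They summed to between 40074 and 81214 normalized counts in WT and between 31350 and 96899 in DKO, below the hepatoblast sums given below. Mesenchymal markers were called higher for 4 of 5, against 6.19% of all genes, their sum going from between 1732 and 5361 normalized counts in WT to between 11403 and 41415 in DKO. Against 2.43% of all genes called lower, neutrophil markers were for 3 of 4 (sum 101500 to 132026 in WT and 5273 to 44658 in DKO), as were progenitor markers for 2 of 4, macrophage markers for 1 of 6 and endothelial markers for 1 of 5. Hepatoblast markers summed to between 484456 and 675029 in WT and between 162488 and 591769 in DKO, with 0 of 7 called by edgeR (3 lower at an unadjusted p under 0.05, 2 by DESeq2). In sorted bulk cells, fewer cells of a type and less RNA per cell cannot be told apart. The part of cell composition, sex and strain in the counts at the copies was not tested.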

How the data were processed

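RNAseq of S0 cells from E12.5 fetal livers was compared between 4 WT and 4 DKO libraries, grouped by their labels. Per the study's methods, libraries were made by template switching, reads were trimmed with fastp 0.21.0, mapped to mm10 with HISAT2 2.2.1, filtered at a mapping quality of 20, and counted with StringTie 1.3.3b and its prepDE script. The authors deposited whole-number counts per gene that were not normalized or pooled. The prepDE script works counts back from coverage and annotated length, so they are not exact read numbers. Totals were 42114489 to 50886469 in WT and 36981439 to 42587815 in DKO, and precision at the copies in WT was limited by counts of 35 or fewer per library.

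Of 52636 gene IDs, 52489 matched GENCODE M21 (GRCm38) with the version dropped. Counts were fitted in R 4.3.3 with edgeR 4.0.16 (filterByExpr, TMM, robust quasi-likelihood test, Benjamini-Hochberg adjustment over the 17378 genes tested, no covariate) and limma 3.58.1. All 4 members passed the filter, and Gm15610 and Gm8210, like Gm6916, did so through DKO alone. Calls needed a log2 fold change beyond 1 and, over all genes, an adjusted p under 0.05. Tma7 and Rpl29 also had an exact permutation test of log2 CPM. Ratios of summed counts have exact 95% binomial intervals. Transcripts were aligned with blastn 2.17.0. In simulated counts, 89.6% of 4-fold and 100% of 16-fold changes were recovered, and 10 of 17729 unchanged genes were called. The simulation gave all genes 1 common dispersion, the same in both groups. The real DKO libraries differed more among themselves (chi-square per gene 55.3 to 124) than the WT libraries (18.9 to 41.5). These rates check the code and are not error rates for these data. No library was a second copy of another (chi-square per gene at least 18.9).

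The members and lists were chosen with earlier results of these data known. Genes named were the members, parents, copies, host genes, nearest called neighbors, the 3 genes most alike, switched pseudogenes and up to 10 other switched genes, translation genes past the threshold, and library checks. The translation genes that passed without the fold threshold, Gm14200, Gm12447, Abcb4 and Kcnk16 were named after their values were seen. Alternatives were DESeq2 1.42.0, other scalings and filters, each library left out, a replicate block, and other thresholds and windows. DKO replicate 3 alone was added after the data were seen. Experiments other than RNAseq were not analysed here.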

Additional observations from a re-analysis of the deposited data

Results flagged for a closer look

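Tma7-ps in DKO had 1 library apart from the rest. DKO replicate 1, at 799 normalized counts, was below the other DKO libraries (2003 to 2021) by 0.985 of the whole range, past the 95% limit of Dixon's test for 4 values. The same library was the lowest for Gm15610, Gm6916 and Gm8210, where the gap did not pass the limit. Tma7 in WT had its highest library apart, at 14684 normalized counts in replicate 3, with a gap of 0.840 of the range. Chance flags about 1 in 20 groups, and 22 groups were examined. What sets these libraries apart was not tested.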

How the results depend on the processing

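The 3 retrocopies and Gm6916 kept their direction in every alternative that could be run. For the 3 retrocopies this was set in advance, since they were chosen as nearly absent in WT and high in DKO. The ranges below describe the size of the difference and do not test it. Leaving out each library in turn, the log2 difference was 6.14 to 6.51 for Tma7-ps, 7.22 to 7.62 for Gm15610, 7.69 to 8.23 for Gm8210 and 6.62 to 7.25 for Gm6916. A minimum of 10 counts in every library removed all but Tma7-ps, which gave no value for Gm15610, Gm8210 and Gm6916. DKO replicate 3 alone against WT, chosen after seeing the data, gave 6.53, 7.81, 8.04 and 7.27.

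Tma7 was past the threshold with upper-quartile scaling (0.24, adjusted p = 0.0339) and stayed from 0.10 to 0.16 with a library left out (adjusted p 0.161 to 0.353). Rpl29 ranged from -1.07 to -0.53 with a library left out (adjusted p 0.0195 to 0.355), and only leaving out DKO replicate 4 passed. The genes called were 1076 higher and 423 lower. DESeq2, which was not limited to the 17378 genes of the edgeR filter, called 1653 higher. Among those 17378 it called 1395 higher and 557 lower. Calls were 613 higher with the replicate block, and 1867 higher and 1878 lower without a fold threshold. With a library left out they ranged from 566 to 1148 higher and 243 to 521 lower. Without WT replicate 1, 2 and 4 they were 566, 650 and 633 higher and 258, 260 and 243 lower. Replicate numbers did not pair the libraries (correlations of same-numbered deviations -0.10, 0.05, -0.03 and -0.01). Under the replicate block the log2 fold change of Rpl29 was -1.18 and of Tma7 0.14, and no call on either changed.

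Processed pseudogenes, 9 higher and 3 lower, were 26 and 7 with DESeq2, of which 15 and 4 were among the 744 tested by edgeR. They were 3 and 0 with the replicate block, and 4 to 11 and 0 to 6 with a library left out. Their median of 0.28 was 0.39 with upper-quartile scaling, which moved the median of all genes from 0.03 to 0.14 and that of the translation list from 0.04 to 0.15. Genes within 1 Mb of the members, 5 higher and 7 lower with a median of -0.01, were 9 higher with DESeq2 (median 0.054), 4 lower with the replicate block (median -0.089), 1 higher and 2 lower within 0.2 Mb (median 0.13), and 3 to 6 higher and 4 to 6 lower with a library left out. Their median was 0.10 with upper-quartile scaling and 0.040 without the low-count filter. Switched genes, 20 on and 2 off, were 50 and 9 at a gap of 4 times, 48 and 18 at 10 normalized counts or more, and 20 to 34 on (34 without WT replicate 3) and 2 to 6 off with a library left out. The causes were not tested. Depth limits the copies in WT, where Gm8210 and Gm15610 had 4 counts or fewer per library.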
